A study of Mus musculus with 28 samples.

Results

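The chemokines and inflammatory cytokines described here are Ccl2, Ccl7, Ccl11, Cxcl1, Cxcl5, Cxcl10, Cxcl12, Cxcl13, Il6 and Lif. They were chosen by gene name, 10 genes of the 55416 listed for mesenchymal cells of the mouse small intestine, and all 10 were found. RNA was sequenced from 28 samples, which the authors placed in 3 separately scaled tables. The mesenchymal table held 2 libraries from the duodenum of PdgfraH2BeGFP mice, a reporter line whose Pdgfra-expressing cells carry a green nuclear label. The library siMCs-FRESH came from untreated cells, and siMCs-HIGH from cells that were immortalised with the HPV16 E6 gene, selected with puromycin, sorted and expanded. The design text describes a sort into low and high eGFP, and the title HIGH was read as the high gate. It does not say how long the cells of siMCs-FRESH were cultured. Culture, immortalisation and sort therefore cannot be told apart, and with 1 library per condition no difference between these libraries has a replicate check. The epithelial reference was small-intestinal organoids of wild-type C57BL/6 mice, which are crypt-derived cultures in a gel matrix. For the BMP ligands there were 4 samples without ligand (noBMP), 4 with BMP2, 3 with BMP3, 3 with BMP4, 3 with BMP5 and 3 with BMP7. For Tgfb there were 3 samples without ligand (CTRL) and 3 with it (TGFbeta). Each ligand was recombinant and was given at 500 ng/ml for 24 h.

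Chemokines are small secreted proteins that direct the movement of leukocytes through receptors coupled to G proteins. Ccl2 and Ccl7 attract monocytes, Ccl11 (eotaxin) attracts eosinophils, and Cxcl1 and Cxcl5 attract neutrophils. Cxcl10 attracts T cells and is induced by interferon, Cxcl12 retains stem cells and lymphocytes in their niches through Cxcr4, and Cxcl13 draws B cells into follicles. Il6 and Lif signal through the shared receptor subunit Il6st to Jak kinases and Stat3. Many of these genes are known targets of NF-kB, AP-1 or interferon-activated factors, and stromal fibroblasts of the gut are a known source of several of them.

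In the mesenchymal cells Cxcl12 was by far the most abundant of the 10, and Cxcl1, Ccl2, Cxcl10, Cxcl12 and Ccl7 were higher in siMCs-HIGH than in siMCs-FRESH. Cxcl5 and Ccl11 were lower there, and Il6 and Lif differed little. Levels are given in TPM, a relative abundance corrected for transcript length, so genes can be compared with each other. A difference is given on the log2(TPM + 1) scale, and 2-fold on that scale was taken as the limit. Of the 10 genes, 9 had a mean of at least 1 TPM over the 2 libraries, Ccl11 through siMCs-FRESH alone. Of these 9, 5 were higher in siMCs-HIGH past the limit, where 6.26% of 13652 genes were higher. Another 2 were lower past the limit, where 10.7% of the same genes were lower. They were Cxcl5 and Ccl11, and the filter fixed the direction of Ccl11. The median log2 difference was 1.34 over the 9 genes and -0.02 over all 13652.

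Upstream sequence was at hand for 6 of the 10 genes, in RefSeq's table of promoters for GRCm38.p6, a build other than the GRCm39 that the submitters' processing notes name. The entries were Cxcl1, Cxcl10, Cxcl12, Cxcl13, Il6 and Lif, and there was none for Ccl2, Ccl7, Ccl11 or Cxcl5. The 250 bases before the annotated start were searched on both strands for 3 motifs. These were the NF-kB decamer, the interferon-stimulated response element (ISRE) spelled GAAANNGAAA, and the AP-1 site spelled TGANTCA. Of 32841 mouse windows of that length, 7.25% held the NF-kB decamer, 2.98% the ISRE and 6.75% the AP-1 site. The windows of 4 genes are shown because they differ in these matches, and a link between matches and expression was not tested. Matches are in capitals and all else in lower case, 5′ to 3′ on the strand of the gene. They lie at chr5:90890995-90891244 (plus strand) for Cxcl1, chr5:92348890-92349139 (minus strand) for Cxcl10, chr5:30012864-30013113 (plus strand) for Il6 and chr6:117168285-117168534 (plus strand) for Cxcl12.
Cxcl1: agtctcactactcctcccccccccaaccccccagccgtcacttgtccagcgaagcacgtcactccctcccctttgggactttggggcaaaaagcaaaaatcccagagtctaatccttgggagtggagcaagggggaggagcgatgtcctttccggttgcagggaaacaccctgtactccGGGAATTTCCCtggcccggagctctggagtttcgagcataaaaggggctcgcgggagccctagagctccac
Cxcl10: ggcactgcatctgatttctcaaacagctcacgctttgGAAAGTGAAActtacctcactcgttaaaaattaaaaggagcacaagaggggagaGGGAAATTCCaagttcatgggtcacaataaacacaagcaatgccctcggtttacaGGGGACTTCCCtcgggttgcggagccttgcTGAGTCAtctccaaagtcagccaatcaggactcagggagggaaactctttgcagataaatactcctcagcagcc
Il6: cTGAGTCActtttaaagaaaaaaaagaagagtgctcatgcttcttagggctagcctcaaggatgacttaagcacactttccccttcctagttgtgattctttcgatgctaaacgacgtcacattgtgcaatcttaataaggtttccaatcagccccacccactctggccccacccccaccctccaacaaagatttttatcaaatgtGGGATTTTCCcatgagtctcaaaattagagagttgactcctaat
Cxcl12: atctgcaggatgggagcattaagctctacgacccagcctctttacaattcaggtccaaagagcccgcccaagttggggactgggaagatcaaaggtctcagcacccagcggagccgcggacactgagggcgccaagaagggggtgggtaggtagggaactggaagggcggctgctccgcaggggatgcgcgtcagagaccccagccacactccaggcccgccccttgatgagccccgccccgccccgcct
The Cxcl1 window held a run of 2 overlapping NF-kB matches, from 71 to 61 bases before the start. The Cxcl10 window held the 3 motifs together, with an ISRE match furthest upstream, 3 NF-kB matches of which 2 overlap, and an AP-1 match nearest the start. The Il6 window held an AP-1 match near its upstream end and an NF-kB match from 44 to 35 bases before the start. The Lif window, not printed, held an AP-1 and an NF-kB match. The windows of Cxcl12 and Cxcl13 held no match to these letters. A match is a description of the sequence and says nothing of binding in these cells.

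**Figure D1:**
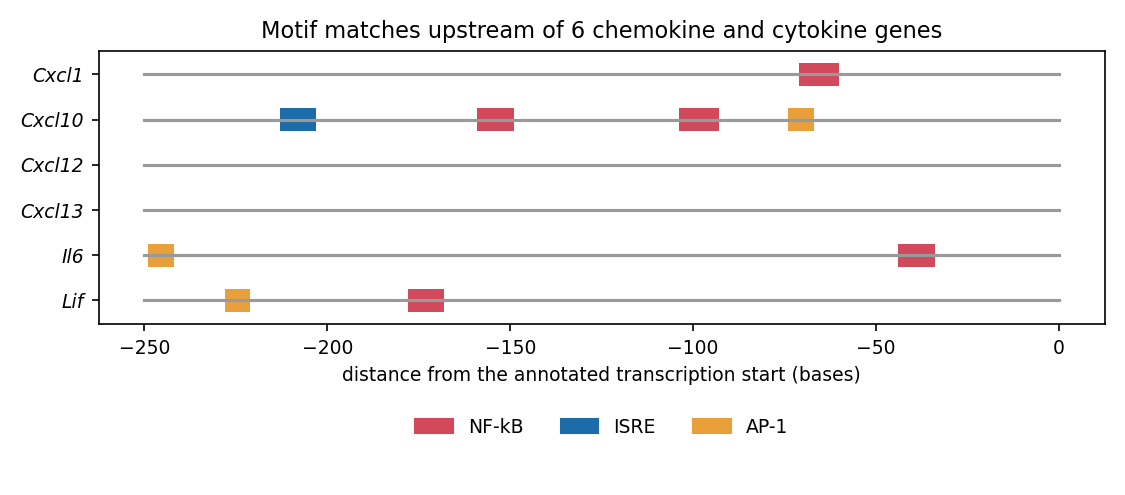
Matches to the NF-kB, ISRE and AP-1 motifs in the 250 bases before the annotated start of 6 genes, on the x axis as distance from the start in bases, with 1 line per gene and 1 coloured block per match. Cxcl10 holds matches to the 3 motifs, while the lines of Cxcl12 and Cxcl13 are empty.

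Cxcl12, the homeostatic chemokine of stromal niches, was at 342 TPM in siMCs-FRESH and at 1080.1 TPM in siMCs-HIGH. Its log2 difference was 1.66. It stood at rank 341 among the genes of siMCs-FRESH and at rank 104 in siMCs-HIGH. Cxcl12 made up 76.6% of the summed TPM of the 10 genes in siMCs-FRESH and 82% in siMCs-HIGH, so the other 9 genes shared the rest. In the 3 untreated organoid samples it was listed at 0, 0 and 0.0278 TPM.

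The CC chemokines moved in opposite directions between the mesenchymal libraries. Ccl2, the monocyte attractant, was at 29.2 TPM in siMCs-FRESH and at 121 TPM in siMCs-HIGH, a log2 difference of 2.01. Ccl7, also a monocyte attractant, was at 16.3 TPM and 42.7 TPM, a log2 difference of 1.34. Ccl11 was at 7.26 TPM in siMCs-FRESH and at 0.805 TPM in siMCs-HIGH, a log2 difference of -2.19. These 3 genes follow each other on chromosome 11 with 0 protein-coding genes between them in the RefSeq gene order. All 3 were listed at 0 in every CTRL organoid sample.

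The ELR chemokines, which act on neutrophils, also moved apart. Cxcl1 had the largest log2 difference of the 9 genes, 3.09, from 3.52 TPM in siMCs-FRESH to 37.6 TPM in siMCs-HIGH. Cxcl5 was at 18.5 TPM in siMCs-FRESH and at 2.14 TPM in siMCs-HIGH, a log2 difference of -2.64. Cxcl5 was thus the more abundant of the pair in siMCs-FRESH and Cxcl1 in siMCs-HIGH. Both genes lie in the chemokine cluster of chromosome 5, with 4 protein-coding genes between them. Cxcl10, the interferon-induced T cell attractant, was at 2.34 TPM and 11.8 TPM, a log2 difference of 1.94. Cxcl13 was at 1.13 TPM in siMCs-FRESH and was listed at 0 in siMCs-HIGH, so it stayed below the filter and no fold is given.

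The cytokines of the IL-6 family were near level. Il6 was at 20.7 TPM in siMCs-FRESH and 16.8 TPM in siMCs-HIGH, a log2 difference of -0.28. Lif, which supports self-renewal in stem cells, was at 5.67 TPM and 5.02 TPM, a log2 difference of -0.15. In untreated organoids Il6 was listed at 0 in every CTRL sample, while Lif was at 1.18, 1.36 and 1.48 TPM. Lif had the highest level of the 10 genes in untreated organoids, at 1.34 ± 0.155 TPM (SD, n = 3).

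**Figure D2:**
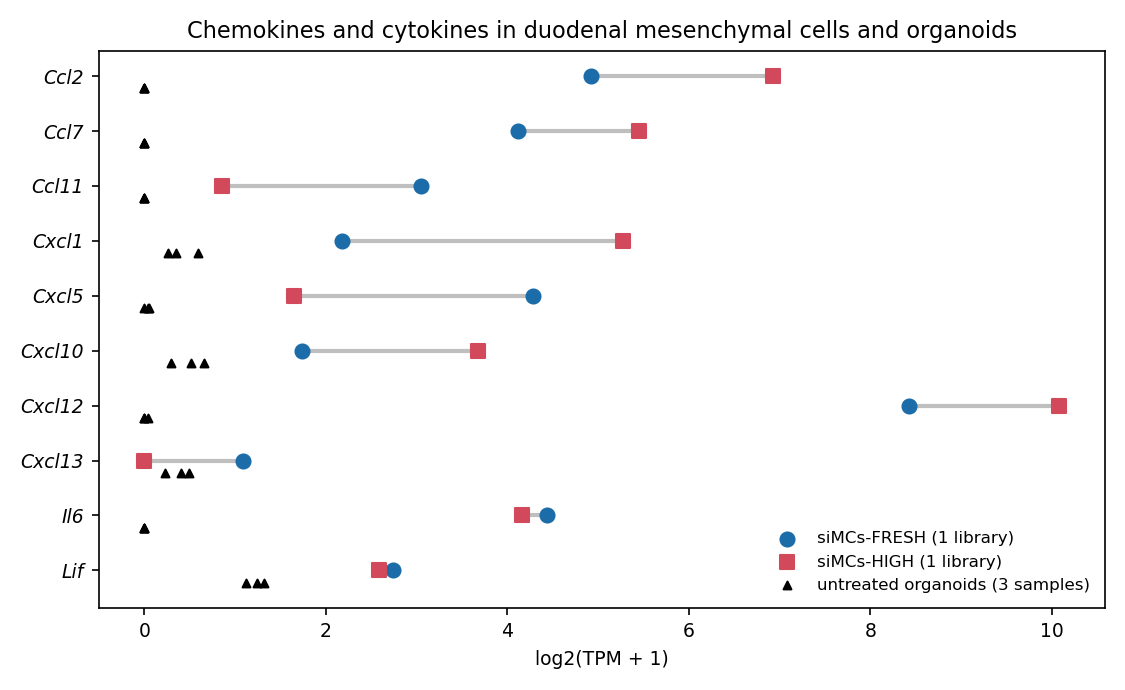
Levels of the 10 genes as log2(TPM + 1), with 1 circle for siMCs-FRESH, 1 square for siMCs-HIGH and 3 triangles for the untreated CTRL organoids, which were scaled in another table. Cxcl12 lies furthest right in both mesenchymal libraries, and the lines of Ccl11 and Cxcl5 run opposite to those of Cxcl1, Ccl2, Cxcl10, Ccl7 and Cxcl12.

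The defining markers of mesenchyme were present in both libraries and nearly absent from organoids. The 10 markers summed to 20088 TPM in siMCs-FRESH, 7552 TPM in siMCs-HIGH and 5.24 to 8.37 TPM in CTRL organoids. Of them, 2 were higher and 6 lower in siMCs-HIGH past 2-fold, with the collagens Col1a1 at 5543 and 1483 TPM and Col3a1 at 3733 and 427 TPM. Pdgfra, the gene of the reporter, was at 37.5 TPM in siMCs-FRESH and 113 TPM in siMCs-HIGH, and Thy1 at 93.7 and 474 TPM; both were chosen after their values were seen. The 6 smooth muscle markers summed to 8339 and 10895 TPM, with Acta2 at 5112 and 7499 TPM and Actg2 at 1917 and 1854 TPM. Past 2-fold 0 of them were higher and 1 was lower, with a median log2 difference of -0.05. Of all genes 6.26% were higher and 10.7% lower. The lower smooth muscle marker was Des, at 197 and 1.13 TPM, which is named outside the rule. Myh11, also named outside it, was at 322 and 178 TPM. Summed haematopoietic, mesothelial, endothelial and epithelial markers were higher in siMCs-FRESH. The 13 haematopoietic markers summed to 142 TPM there and to 11.7 TPM in siMCs-HIGH, led by Lyz2 at 111 and 9.81 TPM and Tyrobp at 8.01 TPM and 0, with 2 of 13 at 0 in siMCs-FRESH and 7 in siMCs-HIGH. The 4 mesothelial markers summed to 129 TPM and 0.281 TPM, led by Upk3b at 58.2 and 0.141 TPM and Msln at 35.1 and 0.0861 TPM. The 7 endothelial and lymphatic markers summed to 22.4 TPM and 2.3 TPM, led by Kdr at 7.06 and 0.319 TPM and Cdh5 at 4.81 TPM and 0. The glial and neuronal markers went both ways. Uchl1 was at 17.7 TPM in siMCs-FRESH and 82 TPM in siMCs-HIGH. Sox10, at 3.13 TPM and 0, and Gfap, at 4.07 and 0.0215 TPM, were lower. Below the filter, S100b was at 1.78 and 0.167 TPM and Elavl4 at 0.143 and 0.63 TPM. Sox10, Gfap, S100b and Elavl4 are named outside the rule. The 10 epithelial markers summed to 36.8 TPM in siMCs-FRESH and 8.85 TPM in siMCs-HIGH against 5117 TPM or more in organoids. Their defining members Epcam and Cdh1 were at 0.161 TPM and 0 in siMCs-FRESH and both at 0 in siMCs-HIGH, and the leading ones were the keratins Krt18 (19.2 and 0.0868 TPM) and Krt8 (9.1 TPM and 0). Kit and Ano1, of the interstitial cells of Cajal, were at 1.03 and 1.05 TPM in siMCs-FRESH and at 0.0176 and 0.108 TPM in siMCs-HIGH. Of the follicular stromal markers Cr2 was at 0.0215 TPM and 0, and Ccl19 at 0 in both. The part of these other cells in the values of Ccl11, Cxcl5 and Cxcl13 was not tested. In these bulk samples fewer cells of a type and less RNA per cell cannot be told apart.

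Other chemokine ligands of the mesenchymal cells were few. Of 18 other CC ligands 6 passed the filter, with 2 higher and 2 lower in siMCs-HIGH and a median log2 difference of 0.16. Ccl6 was at 37.8 TPM and 0, Ccl9 at 5.64 and 1.38 TPM, Ccl5 at 0 and 3.11 TPM, and Ccl17 at 0.81 and 2.93 TPM in siMCs-FRESH and siMCs-HIGH. Of 12 other CXC, CX3C and XC ligands 4 passed, with 1 higher and 2 lower and a median of -1.59. Pf4, a product of platelets and macrophages, was at 12.7 TPM and 0, Cxcl14 at 8 TPM and 0, Cx3cl1 at 3.82 and 11.8 TPM, and Cxcl16 at 7.82 and 7.8 TPM. Ccl6, Pf4 and Cxcl14 passed the filter through siMCs-FRESH alone, and Ccl5 and Ccl17 through siMCs-HIGH alone. The filter therefore fixed the direction of these genes. Over all genes 6.26% were higher and 10.7% lower past 2-fold. Of 22 chemokine receptors only the atypical receptors Ackr3 and Ackr4 passed. Ackr3, which binds and removes Cxcl12, was at 6.99 TPM in siMCs-FRESH and 6.14 TPM in siMCs-HIGH, and Ackr4 was at 3.32 and 2.52 TPM.

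Receptors of the IL-6 family were detected in both mesenchymal libraries. All 6 IL-6 family receptors passed the filter, with 0 higher and 2 lower in siMCs-HIGH and a median log2 difference of -0.51. For this and the next lists, 6.26% of all genes were higher and 10.7% lower past 2-fold. The shared subunit Il6st was at 468 TPM in siMCs-FRESH and 188 TPM in siMCs-HIGH, and Cntfr at 15.5 and 1.54 TPM. Il6ra, the subunit that binds Il6, was at 3.1 and 2.4 TPM and is named outside the rule, after its values were seen. Lifr was at 8 and 5.14 TPM, and Il11ra1 at 62.1 and 44.7 TPM. Of 6 other IL-6 family cytokines 3 passed and none went past 2-fold, with Ctf1 at 19 and 21.6 TPM, Clcf1 at 11.7 and 11 TPM, and Cntf at 1.75 and 2.14 TPM. In the JAK-STAT3 list 7 of 8 genes passed, 0 were higher and 2 lower. The 2 were the feedback inhibitor Socs3, at 35.2 TPM and 9.48 TPM, and the kinase gene Pim1, at 68.3 TPM and 17.8 TPM, both targets of Stat3. Stat3 itself was at 116 and 84.7 TPM and Jak2 at 27.3 and 44 TPM.

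Genes of the interferon response were lower in siMCs-HIGH where they went past 2-fold, and those of the NF-kB list went both ways. Of 19 genes in the NF-kB list, all passed the filter, with 4 higher and 2 lower in siMCs-HIGH and a median log2 difference of 0.20. The 2 lower ones are a share near the 10.7% of all genes that were lower, and 6.26% of all genes were higher. Ptgs2, which makes prostaglandins, was at 33.4 TPM in siMCs-FRESH and 166 TPM in siMCs-HIGH, and Birc3 at 7.54 and 22.3 TPM. Icam1, the adhesion molecule for leukocytes, was at 14.6 and 1.55 TPM, and Bcl3 at 32.7 and 13.5 TPM. Of 15 interferon response genes 12 passed, with 0 higher and 6 lower and a median of -1.03. Isg15 was at 41.8 and 6.14 TPM, Ifit3 at 16.9 and 2.95 TPM, Usp18 at 6.22 and 0.927 TPM and Irf7 at 8.6 and 2.2 TPM, while Cxcl10 was higher in siMCs-HIGH. Of 16 other cytokines 7 passed, with 2 higher and 2 lower and a median of 0.20. Csf1, the macrophage growth factor, was at 181 and 623 TPM and Tslp at 1.75 and 8.04 TPM, whereas the alarmin Il33 was at 74.9 and 0.217 TPM and Il18 at 4.86 and 0.994 TPM. Usp18, Il33 and Il18 passed the filter through siMCs-FRESH alone.

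Lists for stress, the p53 pathway and growth had at most 1 gene past 2-fold in either direction. These counts are near or below the shares of all genes, 6.26% higher and 10.7% lower. Of 15 immediate early and heat shock genes 1 was higher and 1 lower, with a median log2 difference of 0.39. Egr1 was at 52.5 and 130 TPM, Atf3 at 11.7 and 2.99 TPM, Ier2 at 28.2 and 46.5 TPM and Dusp1 at 52.1 and 84.9 TPM. Of 10 p53 targets, relevant because E6 is known to degrade p53, 0 were higher and 1 was lower, with a median of -0.19. Trp53inp1 was at 51.9 and 22.1 TPM, Cdkn1a at 292 and 147 TPM, Sesn2 at 26.5 and 14.4 TPM and Mdm2 at 85.2 and 115 TPM. Of 10 proliferation genes none went past 2-fold, with a median of 0.55 and Pcna at 71.2 and 121 TPM, Cdk1 at 54.4 and 90.5 TPM, Mcm2 at 16.2 and 25.1 TPM and Mcm5 at 13.5 and 21 TPM.

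**Figure D3:**
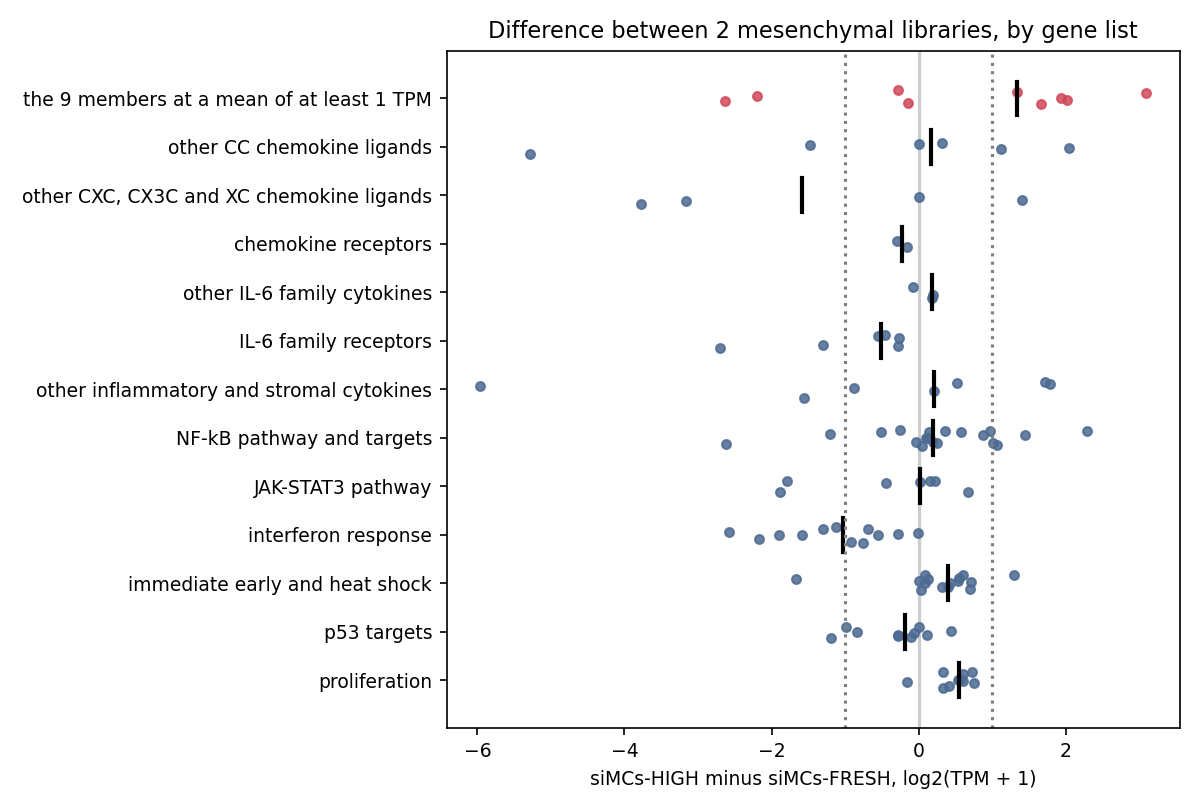
Difference between siMCs-HIGH and siMCs-FRESH on the log2(TPM + 1) scale, with 1 point per gene at a mean of at least 1 TPM, 1 row per gene list, black bars at the medians and dotted lines at 2-fold. The row of the 9 chemokines and cytokines has its median at 1.34 and that of the interferon response at -1.03.

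The organoids showed which of the 10 genes epithelium expressed by itself. In the BMP table values are normalized counts, not scaled by length, so they compare samples and not genes. The libraries held between 21358620 and 24784834 reads, recovered from the deposited values, and a read stood for 0.826 to 1.28 normalized counts. Ccl7 and Ccl11 had no entry there. Il6 had at most 1 read in any of the 20 samples, Ccl2 at most 4 and Cxcl12 at most 5, where a count of 0 still allows 3 reads. For Cxcl12 the 4 noBMP samples held 0 reads, and the BMP2 samples held 5, 2, 1 and 0, a level at which no fold is given. The mesenchymal genes Cxcl12, Ccl2, Ccl7, Ccl11 and Il6 were thus at or near the detection limit in epithelium, with and without ligand.

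Cxcl1, Cxcl5, Cxcl10 and Lif rose in organoids given BMP2, BMP5 or BMP7, and did not pass the test with BMP3. These 4 genes were the ones that passed the filter of the BMP table, a mean of at least 10 normalized counts over its 20 samples, and Cxcl5 passed only through treated groups. The filter therefore fixed a rise of Cxcl5 with some of the ligands. By limma with Benjamini-Hochberg adjustment over 14746 genes and a threshold of 0.05, all 4 were higher with BMP2, where 36.8% of all genes were higher. All 4 were higher with BMP5 (16.5% of all genes) and with BMP7 (19.2%). With BMP4 only Cxcl10 passed, where 33.7% of all genes were higher. With BMP3 0 of the 4 passed and 0% of all genes were higher. For BMP3 limma called 0 genes and 110 had an unadjusted p under the threshold, while edgeR called 0 and DESeq2 1. The 5 ligands differed from each other for all 4 genes by limma's F-test, as did 84.1% of all genes. These comparisons share the same 4 noBMP samples. Where samples of the groups are said below to lie apart, the share of all genes that do the same was not counted. Labels do not say whether replicates are separate cultures or animals, so p-values measure the spread between these samples.

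Cxcl1 stood out for the gap between BMP2 and BMP4. Its normalized counts were 4.13, 13.3, 14.9 and 18.6 without ligand and 134, 206, 232 and 320 with BMP2. They were 5.07, 13.3 and 16.6 with BMP3, 0, 9.13 and 14.2 with BMP4, 52.9, 54.7 and 92.6 with BMP5, and 50.8, 54.8 and 88.4 with BMP7. Every sample given BMP2, BMP5 or BMP7 lay above every other sample, and those of BMP3 and BMP4 lay among or below the controls. The log2 change was 4.12 ± 0.64 (SE) with BMP2 (limma adjusted p = 1.08e-05), 2.41 ± 0.691 with BMP5 (0.0145) and 2.37 ± 0.691 with BMP7 (0.0132). With BMP4 it was -1.20 ± 0.691 (limma adjusted p = 0.138).

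Cxcl5 was almost silent in untreated organoids. It was at 0, 0, 1.77 and 3.55 normalized counts without ligand, and at 41.2, 56.8, 62 and 69.1 with BMP2. It was at 24.1, 30.5 and 40.1 with BMP5, at 19.1, 27.3 and 30.8 with BMP7, at 0.845, 3.5 and 5.34 with BMP3 and at 1.2, 3.42 and 4.74 with BMP4. The samples given BMP2, BMP5 or BMP7 did not overlap the rest. The log2 change was 4.93 ± 0.49 (SE) with BMP2 (limma adjusted p = 3.26e-08), 4.08 ± 0.529 with BMP5 (1.65e-05) and 3.80 ± 0.529 with BMP7 (2.38e-05). With BMP4 it was 1.02 ± 0.529 (limma adjusted p = 0.0998).

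Cxcl10 was the gene of the 4 that also rose with BMP4. It was at 4.96, 10.6, 24.1 and 30.2 normalized counts without ligand, at 134, 161, 195 and 275 with BMP2, and at 39.5, 67.3 and 119 with BMP4. It was at 35, 46.5 and 47.2 with BMP5, at 44.3, 49 and 51 with BMP7 and at 12.3, 22 and 41.8 with BMP3. The samples of BMP2, BMP4, BMP5 and BMP7 lay above all controls, while BMP3 overlapped them. The log2 change was 3.6 ± 0.455 (SE) with BMP2 (limma adjusted p = 8.08e-07), 2.18 ± 0.491 with BMP4 (0.000721), 1.51 ± 0.491 with BMP5 (0.0292) and 1.68 ± 0.491 with BMP7 (0.0134).

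Lif was detected in every organoid sample. It was at 77.3, 110, 112 and 142 normalized counts without ligand and at 339, 510, 701 and 853 with BMP2. It was at 135, 393 and 411 with BMP5, at 159, 310 and 358 with BMP7, at 96.9, 122 and 137 with BMP3 and at 96.9, 105 and 112 with BMP4. BMP2 and BMP7 samples lay above all controls, and 1 BMP5 sample lay within their range. The log2 change was 2.38 ± 0.339 (SE) with BMP2 (limma adjusted p = 3.74e-06), 1.37 ± 0.366 with BMP5 (0.00963), 1.26 ± 0.366 with BMP7 (0.0129) and -0.05 ± 0.366 with BMP4 (0.923).

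Cxcl13, the B cell attractant, lay below the filter but followed BMP2. It was at 1.65, 1.66, 1.77 and 7.1 normalized counts without ligand and at 18.8, 21.5, 31.8 and 35.8 with BMP2. With the other ligands it lay between 0 and 10. When genes down to a mean of 1 were tested, its log2 change with BMP2 was 2.93 ± 0.459 (SE) with a limma adjusted p of 1.3e-05. Its log2 change with BMP5 was 1.19 ± 0.496 (limma adjusted p = 0.114).

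**Figure D4:**
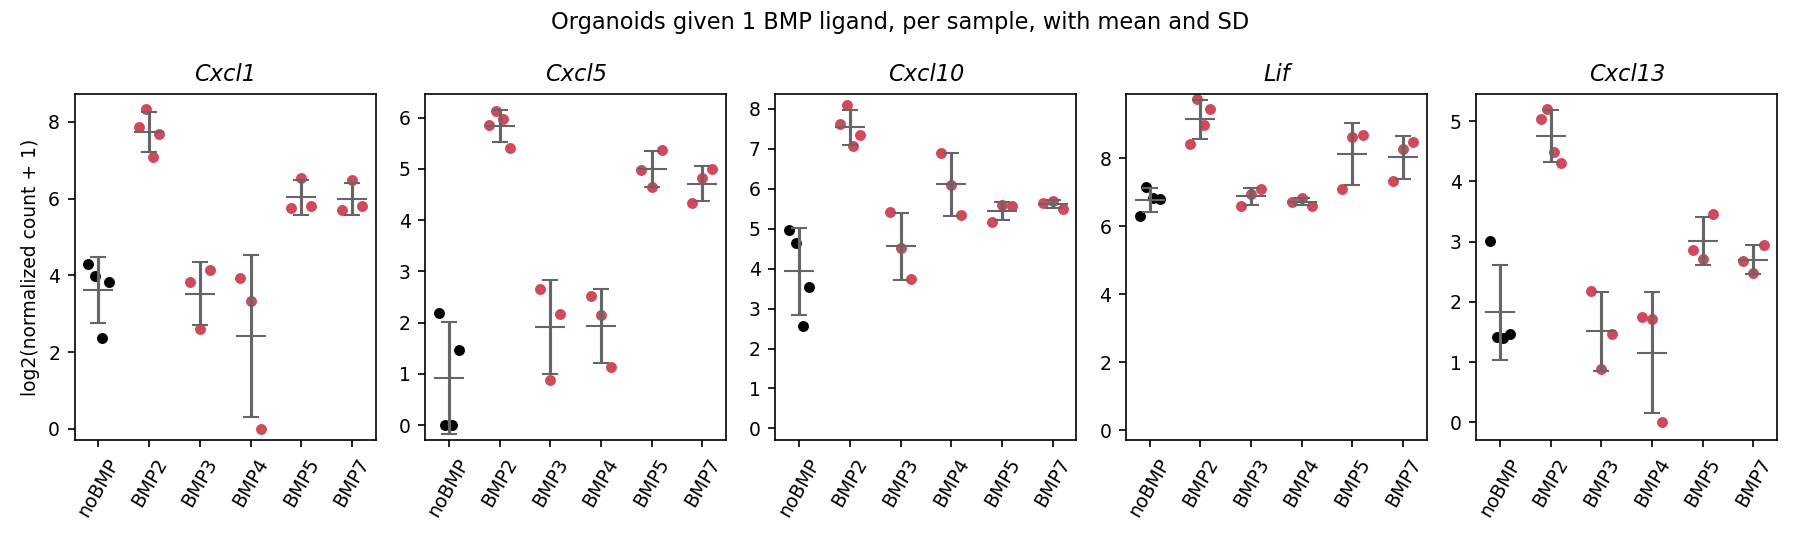
Values of 5 genes in the 20 organoid samples of the BMP table as log2(normalized count + 1), by ligand, with 1 point per sample and the mean and SD of each group. BMP2 has the highest mean in each panel, followed by BMP5 and BMP7 except for Cxcl10, where BMP4 comes second, and BMP3 overlaps the controls.

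The calls with BMP5 and BMP7 rested on single samples more than those with BMP2. Leaving out BMP5 replicate III left 1 of the 4 genes called, Cxcl5, with a limma adjusted p of 0.0739 for Cxcl1, 0.0964 for Cxcl10 and 0.0702 for Lif. Without BMP5 replicate VI, Cxcl10 and Lif were lost, and without noBMP replicate VI, Cxcl1 and Cxcl10. Without noBMP replicate IV Cxcl10 alone was lost. Without BMP7 replicate III the limma adjusted p of Cxcl1 was 0.051, and without BMP7 replicate VI that of Lif was 0.0771. With a pseudocount of 0.1 that of Cxcl1 was 0.109 with BMP5 and 0.101 with BMP7, and with only the 2 groups in the fit that of Cxcl10 with BMP5 was 0.0677. With BMP4, Cxcl5 or Cxcl1 passed when 1 of 3 libraries was left out. Cxcl5 had an adjusted p of 0.0411 without BMP4 replicate VI and 0.0187 without noBMP replicate II, and Cxcl1, then lower with BMP4, 0.024 without BMP4 replicate II. The 4 calls with BMP2 held in every one of the alternatives tried.

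BMP2 was compared with 3 of the other ligands at the same dose and time, as contrasts chosen after the data were seen. Against BMP4 all 4 genes were higher with BMP2, where 33.4% of all genes were higher. The log2 difference was 5.32 ± 0.691 (SE) for Cxcl1 (limma adjusted p = 1.74e-06), 3.91 ± 0.529 for Cxcl5 (2.91e-06), 2.43 ± 0.366 for Lif (1.06e-05) and 1.42 ± 0.491 for Cxcl10 (0.0161). That of Cxcl10 had an adjusted p of 0.0502 without BMP2 replicate III and 0.102 without BMP4 replicate VI. Against BMP5, 3 of the 4 were higher (32.2% of all genes), and against BMP7 also 3 (31.4%). Cxcl10 was higher with BMP2 than with BMP5 by 2.09 ± 0.491 (SE, limma adjusted p = 0.00109) and than with BMP7 by 1.92 ± 0.491 (0.00233). For Cxcl5 the differences were 0.84 ± 0.529 (SE, limma adjusted p = 0.171) and 1.13 ± 0.529 (0.072). Both of these passed with DESeq2 (adjusted p = 0.0208 against BMP5 and 0.002 against BMP7), with quantile normalization (limma, 0.0488 and 0.0286), with a pseudocount of 10 (limma, 0.00525 and 0.000644) and with only the 2 groups in the fit (limma, 0.0266 and 0.00648). With edgeR the one against BMP7 passed (adjusted p = 0.034). Those of Cxcl1 and Lif lay between 1.02 and 1.75, and each lost its call under more than 1 alternative. Without BMP5 replicate II the limma adjusted p of BMP2 against BMP5 was 0.105 for Cxcl1 and 0.213 for Lif, and without BMP7 replicate II that of BMP2 against BMP7 was 0.098 for Cxcl1 and 0.0998 for Lif. After every sample was rescaled to the same total, 1 of 4 genes was higher with BMP2 than with BMP5 and 1 than with BMP7, Cxcl10 in both.

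The authors' scaling was compared with others. Rescaling every sample to the same total moved the median log2 change of all genes from -0.03 to -0.48 with BMP2, from 0.04 to -0.35 with BMP4 and from -0.05 to -0.12 with BMP7. The genes called with BMP2 were then 3627 higher and 7783 lower, against 5420 higher and 5657 lower as deposited, and with BMP4 3100 higher and 6864 lower, against 4964 and 4633. With BMP7 they were 2587 higher and 2725 lower against 2833 and 1940, and for BMP5 quantile normalization gave 2425 higher and 2317 lower against 2429 and 1455. For BMP2 against BMP5 the rescaled split was 2614 higher and 7251 lower against 4749 and 4832, and against BMP7 2527 and 6948 against 4637 and 4625. The direction of Cxcl1, Cxcl5, Cxcl10 and Lif with BMP2, BMP5 and BMP7 was the same under both rescalings. Samples were sequenced in 2 runs that the labels do not assign, so a run effect cannot be told apart.

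Tgfb raised Cxcl1, Cxcl10 and Lif in organoids. These 3 genes passed the filter of the TGFb table, a mean of at least 1 TPM over its 6 samples, Cxcl1 and Cxcl10 only through the treated group. The filter therefore fixed the direction of Cxcl1 and Cxcl10, and only Lif was free to go either way. All 3 were called where 27.4% of 12959 genes were higher. Cxcl1 was at 0.198, 0.275 and 0.51 TPM in CTRL and at 4.95, 6.02 and 6.7 TPM with Tgfb. Its log2 change was 2.37 ± 0.168 (SE, limma adjusted p = 7.27e-05). Cxcl10 was at 0.228, 0.429 and 0.573 TPM in CTRL and at 3.97, 4.37 and 5.58 TPM with Tgfb, a log2 change of 2.0 ± 0.18 (SE, limma adjusted p = 0.000191). Lif was at 1.18, 1.36 and 1.48 TPM in CTRL and at 5.72, 5.98 and 7.13 TPM with Tgfb, a log2 change of 1.63 ± 0.126 (SE, limma adjusted p = 9.92e-05). The groups did not overlap for any of the 3, though the share of all genes whose groups also lie apart was not counted. The level of Lif with Tgfb was near the 5.67 TPM of siMCs-FRESH, which was scaled in another table.

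Cxcl5 and Cxcl13 stayed below that filter. Cxcl5 was at 0, 0.029 and 0.0341 TPM in CTRL and at 0.581, 0.594 and 1.03 TPM with Tgfb, and with no filter its log2 change was 0.75 ± 0.107 (SE, limma adjusted p = 0.00384). Cxcl13 was at 0.171, 0.322 and 0.402 TPM in CTRL and at 0.566, 0.969 and 1.95 TPM with Tgfb (limma adjusted p = 0.0918 with no filter). Neither gene's groups overlapped. Ccl2 was listed at 0 in 5 of the 6 samples and at 0.267 TPM in 1 Tgfb sample, Cxcl12 reached at most 0.0278 TPM, and Ccl7, Ccl11 and Il6 were at 0 in all 6.

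**Figure D5:**
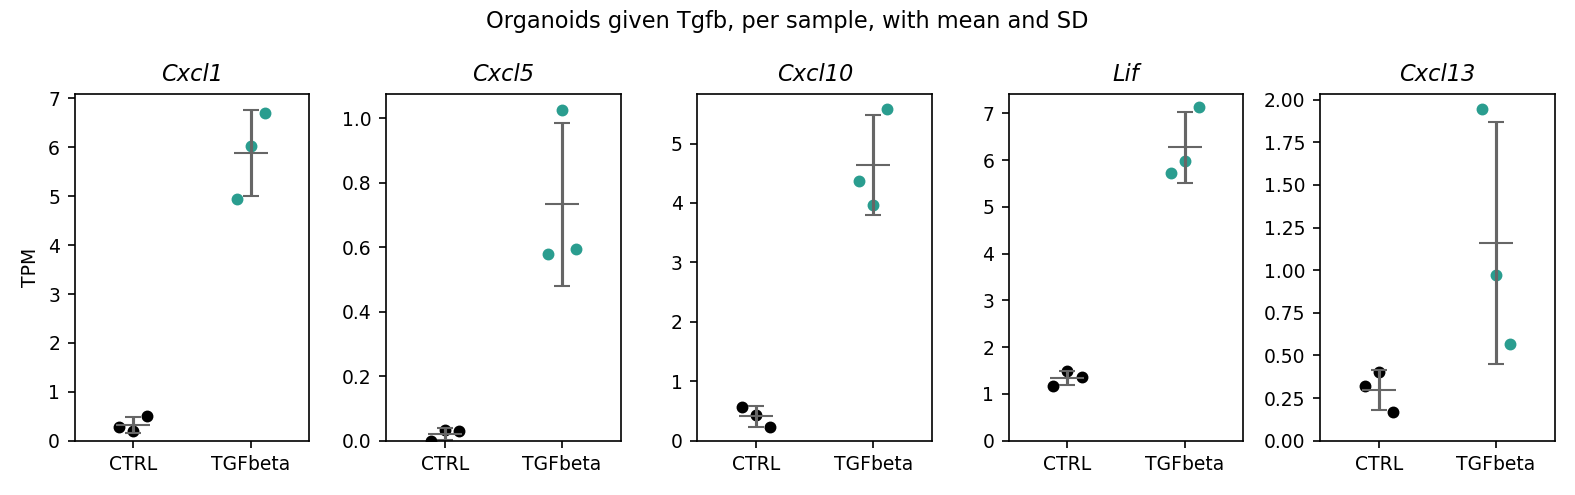
TPM of 5 genes in the 3 CTRL and 3 Tgfb organoid samples, with 1 point per sample and the mean and SD of each group. The treated samples lie above the untreated ones in every panel, from 4.95 to 6.7 TPM for Cxcl1 and from 5.72 to 7.13 TPM for Lif.

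Genes of the same pathways also rose in the organoids. With BMP2, 17 of 18 tested NF-kB pathway genes and 14 of 15 interferon response genes were higher, against 36.8% of all genes. Their medians were 1.5 and 3.31 on the log2 scale, against -0.03 over all genes. All 8 JAK-STAT3 genes were higher with BMP2, among them Pim1 by 3.38 ± 0.224 (SE, limma adjusted p = 1.16e-10). With BMP4, 10 of 18 NF-kB genes were higher and 3 lower, among the latter Icam1 at -2.85 ± 0.305 (SE, limma adjusted p = 1.93e-07), whereas 13 of 15 interferon genes were higher. Of all genes 33.7% were higher and 31.4% lower with BMP4. With Tgfb, 14 of 17 NF-kB and 12 of 13 interferon genes were higher, against 27.4% of all genes. The other CXC, CX3C and XC ligands tested were higher with BMP2, 5 of 5 as deposited and 4 of 5 with every sample at the same total, among them Cxcl16 by 4.15 ± 0.168 (SE, limma adjusted p = 4.05e-13). Of the 12 on that list, 5 passed the filter, whose mean included the treated samples. How many passed only through treated samples was not counted, so the filter may have fixed the direction of some. Of 6 other CC ligands tested, 5 were lower with BMP2, where 38.4% of all genes were lower, and 4 with Tgfb (29.3% of all genes), while with BMP4 1 was higher and 2 lower (31.4% of all genes lower). Among the 5 was Ccl9 at -5.24 ± 0.319 (SE, limma adjusted p = 3.75e-11) with BMP2. Immediate early and heat shock genes also rose, with 14 of 15 higher with BMP2 and a median log2 change of 3.2. With BMP4 8 of these 15 were higher and 2 lower, and with Tgfb 11 of 13 were higher and 1 lower. With BMP3 none of the genes on these lists was called. With every sample at the same total, 13 of 18 NF-kB genes were higher and 1 lower with BMP2. With BMP4 4 of them were then higher and 6 lower, and the interferon genes were 13 and 12 of 15 higher with BMP2 and BMP4. At that scaling 24.6% of all genes were higher with BMP2 and 21% with BMP4. Of 14746 genes, 7783 were then lower with BMP2 and 6864 with BMP4. The 10 proliferation genes were all lower with BMP2, with BMP4 and with Tgfb, while 1 was lower with BMP5 (9.87% of all genes) and 0 with BMP7 (13.2%). The part of proliferation in the values of Cxcl1, Cxcl5, Cxcl10 and Lif was not tested.

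The genes most like each of the 4 over the 20 BMP table samples were ranked by Pearson's r of log2 values, as a description. They were Wnt7b (0.95) and Sox11 (0.95) for Cxcl1, and Rab11fip5 (0.95) and Tnfrsf11b (0.95) for Cxcl5. For Cxcl10 they were Tm4sf1 (0.95) and Plat (0.94), and for Lif Bmp1 (0.95) and Gm19385 (0.95). The 20 samples fall into 6 treatment groups, so these values include the differences between groups.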

How the data were processed

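RNA-seq of 28 samples was used. The submitters' processing notes name Trim Galore, Salmon, DESeq2 and GRCm39, with no roles or versions. In the BMP table the deposited values are a signal, namely counts over a size factor. That follows from the numbers themselves: 100% of 180721 low values were whole multiples (within 0.1 read) of the value of 1 read, so reads were recovered. In the other tables the deposited values are TPM, read from column sums, and their depth is unknown. Columns were matched to labels, and 0 columns were left unmapped.

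Tests were two-sided, with limma 3.58.1 (R 4.3.3) on log2(value + 1), Benjamini-Hochberg adjustment over all genes tested and a threshold of 0.05, and were tested on simulated data. The simulated samples were independent and had the same spread setting for every gene, so they do not cover deviations shared between replicates. The filters were a mean of 10 normalized counts or 1 TPM. On recovered reads edgeR 4.0.16 and DESeq2 1.42.0 were alternatives. Others were pseudocounts, filters, scalings, fits of 2 groups, a replicate block and omitted samples. The mesenchymal libraries have no test. Genes named from lists were the up to 4 per pathway list with the largest mesenchymal difference, the 2 most abundant per marker list in siMCs-FRESH, and the 2 most like each gene. A marker gene that this rule named is not reported here. Cxcl16, Ccl9, Icam1 and Pim1 in organoids come from that set. The 10 genes, the lists and the tests were chosen with earlier results of these data known.

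Whether equal replicate numbers pair samples was checked from correlated deviations. With every pair above 0.1, they paired BMP3, BMP4, BMP5 and BMP7 with noBMP, and BMP2 with BMP5. They did not pair BMP2 or Tgfb with the controls. No libraries agreed within sampling noise. Floors of 3 reads cover counting error only.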

Additional observations from a re-analysis of the deposited data

Results flagged for a closer look

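The effects of the 5 ligands differed for the 4 genes tested in organoids. By limma's F-test the adjusted p was 6.64e-06 for Cxcl1, 1.69e-06 for Cxcl5, 0.000256 for Cxcl10 and 2.85e-05 for Lif, in a fit where 84.1% of all genes passed. Cxcl13 in the untreated organoids had 1 sample, replicate II, at 7.1 normalized counts (8 reads), far from the others at 1.65 to 1.77. It was the single outlying sample found in 11 groups of 4 samples examined. Chance gives about 1 in 20 for each group, so 1 among 11 groups is not unusual.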

How the results depend on the processing

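No call on Cxcl1, Cxcl5, Cxcl10 or Lif changed with replicate numbers as blocks. The replicate block gave Lif with BMP4 a log2 change of 0.011. Uncalled values that changed sign were Lif with BMP4, at 0.25 with quantile normalization, 0.0077 without BMP4 replicate VI and 0.085 without noBMP replicate III, within -0.20 to 0.085 with a sample left out. So did Lif with BMP3 (-0.037 without noBMP replicate II, highest 0.26), Cxcl1 with BMP3 (0.37 without BMP3 replicate III, 0.13 without noBMP replicate II, 0.029 without noBMP replicate III, lowest -0.51) and Cxcl1 with BMP4 (0.013 without BMP4 replicate VI, lowest -1.95). Genes called with BMP3 were 1 by DESeq2, 3 with the 2 groups alone and 0 to 1 with a sample left out. Genes called with BMP5 were 2515 to 4298 with a sample left out. Of the 4 genes, 1 to 4 were then called with BMP5, 1 to 2 with BMP4, 1 to 3 for BMP2 against BMP5 and 1 to 3 for BMP2 against BMP7. A pseudocount of 0.1 gave 2 with BMP4, and the same total gave 1 for BMP2 against BMP5 and 1 against BMP7. At a mean of at least 10 TPM 0 of the genes were left to test with Tgfb, because all fell below the filter. Between the mesenchymal libraries 2318 genes went past 2-fold, 745 with a pseudocount of 10, 910 at a mean of at least 10 TPM and 852 past 4-fold. Of the 10 genes 7 went past 2-fold and 4 past 4-fold, 2 of them higher. A pseudocount of 10 or a mean of at least 10 TPM left 1 lower, Cxcl5. Cxcl10 lost its higher call under both, with a log2 difference of 0.82 at the pseudocount of 10 and a mean below 10 TPM. Depth limits Il6, Ccl2 and Cxcl12 in organoids.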
